A study of Mus musculus with 6 samples.

Results

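The Notch receptors, ligands and targets were examined in total kidney RNA of mice with polycystic kidneys. The 10 genes are the receptors *Notch1*, *Notch2*, *Notch3* and *Notch4*, the ligands *Jag1*, *Jag2*, *Dll1* and *Dll4*, and the targets *Hes1* and *Hey1*. They were found by gene symbol and hold 20 of the 54721 transcripts listed, in 10 of the 23276 genes that carry a symbol. Of these 20 transcripts, 10 are RefSeq mRNAs, 1 for each gene, and 10 were assembled from the reads.

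The series holds 6 kidneys taken at postnatal day 22 according to the labels, while the study's text gives a slightly younger age. In 3 mice the recombinase Cre, driven in renal tubule epithelium by the Ksp promoter (KspCre in the labels), acted on *Pkd1* F/RC, that is, on 1 floxed allele of *Pkd1* beside a germline hypomorphic RC allele (SKO). The other 3 mice carried the same Cre and the same *Pkd1* alleles together with floxed miR-17∼92 (DKO). All 6 mice thus share the *Pkd1* mutation, and no kidney with intact *Pkd1* was analysed here. Endothelium, smooth muscle, stroma and blood cells lie outside the tubule epithelium in which this Cre is expressed.

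The deposited table gives 1 level for each transcript, the authors' mean log2 CPM (counts scaled to the size of each library) over the 6 kidneys. It holds no level for a single kidney, so none of the levels below has an error, and the depth of each library is unknown. The remaining columns hold the authors' own comparison of DKO with SKO kidneys and were not used, so no difference between the genotypes is given for any gene. *Pkd1* had a mean of 31.8 CPM and *Mir17hg*, the host transcript of miR-17∼92, 4.21 CPM. These means pool both groups and do not show whether either locus was recombined in a given kidney.

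Notch signalling passes between cells in contact. A ligand of the Jagged or Delta-like family on one cell binds a Notch receptor on its neighbour, the receptor is cut first by an ADAM protease and then by gamma-secretase, and the freed intracellular domain joins RBPJ in the nucleus and switches on genes of the HES and HEY families. In the developing kidney the pathway patterns the proximal segments of the nephron, with *Notch2* as a main receptor. In the adult it is known in blood vessels (*Notch4*, *Dll4*), in vascular smooth muscle (*Notch3*) and in injured tubules (*Jag1*).

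The miRNAs that distinguish the genotypes are shown first, since they mark the sequences that floxed miR-17∼92 would remove. The mature sequences are from RefSeq (GRCm38.p6, forward strand of chromosome 14), with the seed, bases 2 to 8, in capitals.

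miR-17-5p: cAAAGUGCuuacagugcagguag
miR-20a-5p: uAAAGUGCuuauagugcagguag
miR-18a-5p: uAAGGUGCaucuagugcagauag
miR-19a-3p: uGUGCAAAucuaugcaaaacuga
miR-19b-3p: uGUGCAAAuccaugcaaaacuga
miR-92a-3p: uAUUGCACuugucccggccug

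These 6 miRNAs have 4 seeds, 1 shared by miR-17-5p and miR-20a-5p and 1 by miR-19a-3p and miR-19b-3p. The 3′-UTR of each gene's RefSeq mRNA was read in the GENCODE M21 annotation and searched on the sense strand for the 7 bases complementary to each seed. These are GCACTTT for miR-17-5p and miR-20a-5p, GCACCTT for miR-18a-5p, TTTGCAC for miR-19a-3p and miR-19b-3p, and GTGCAAT for miR-92a-3p. All 10 genes had a 3′-UTR, from 368 nucleotides in *Hes1* to 2917 in *Notch2*. A single match was found. It lies in *Notch2* and is a match to the miR-18a-5p seed at positions 730 to 736 of the 3′-UTR, in the last of 34 exons. Its surroundings are shown with the match in capitals, from the forward strand of GRCm38 at chr3:98148166-98148188.

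Notch2: ctgaacctGCACCTTaatttctc

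The base after the match is an A, as in the longest class of seed match. The other 9 genes held none of the 4 words, and no member held the word of miR-17-5p and miR-20a-5p. Other classes of seed match, with fewer bases paired to the seed, were not searched for. Among the 12400 genes with a 3′-UTR and a RefSeq mRNA of at least 1 CPM, 13.7% held GCACTTT, 8.61% GCACCTT, 12.1% TTTGCAC and 7.06% GTGCAAT, and 31.4% held at least 1 of the 4. The 3′-UTR of *Hes1* is shorter than that of most of these genes, above only 21.2% of them in length, whereas that of *Notch2* is longer than 85.8% of them. A match is a string of letters in a 3′-UTR and not a measured binding site.

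All 4 receptors were present. Their levels are first given in CPM, which is not divided by length, and the genes are compared per length further on. *Notch2* (chromosome 3, 98013527 to 98150361 of GRCm38, forward strand) was listed with 2 transcripts, at a mean log2 CPM of 4.95 for both its RefSeq mRNA NM_010928 and its assembled transcript, or 30.9 CPM. *Notch1* (chromosome 2, 26457903 to 26516663, reverse strand) had a mean log2 CPM of 4.37 for NM_008714 and 4.36 for its assembled transcript, and its higher value equals 20.7 CPM. *Notch3* (chromosome 17, 32120820 to 32166852, reverse strand) was listed once, as NM_008716, with a mean log2 CPM of 3.97, or 15.7 CPM.

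*Notch4* (chromosome 17, 34564268 to 34588503, forward strand) was the only member with 5 transcripts. Its RefSeq mRNA NM_010929 had a mean log2 CPM of 3.34. Of its 4 assembled transcripts, 2 were close to that value, at 3.35 and 3.32, and 2 were lower, at 2.24 and 2.05. The highest of the 5 equals 10.2 CPM and the lowest 4.15 CPM, a 2.45-fold range. No other member had rows so far apart.

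All 4 ligands were present as well. *Jag1*, which encodes the Jagged ligand mutated in human Alagille syndrome, lies on chromosome 2 (137081456 to 137116644, reverse strand). Its RefSeq mRNA NM_013822 had a mean log2 CPM of 4.48, or 22.4 CPM, and its assembled transcripts 4.48 and 3.81. *Dll4*, the Delta-like ligand of arterial and sprouting endothelium (chromosome 2, 119325784 to 119335962, forward strand), was listed once, as NM_019454, with a mean log2 CPM of 2.33, or 5.04 CPM.

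*Jag2* (chromosome 12, 112907819 to 112929776, reverse strand) had a mean log2 CPM of 2.07 for its assembled transcript, or 4.19 CPM, and 1.95 for NM_010588. *Dll1*, a ligand used in nephron formation (chromosome 17, 15367354 to 15376872, reverse strand), had a mean log2 CPM of 2.03 for its only transcript NM_007865, or 4.07 CPM.

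Both targets were listed. *Hes1*, a transcriptional repressor of the basic helix-loop-helix family (chromosome 16, 30064384 to 30067796, forward strand), had a mean log2 CPM of 3.80 for NM_008235, or 13.9 CPM, and 3.76 for its assembled transcript. *Hey1*, a related repressor known from the cardiovascular system (chromosome 3, 8663359 to 8667256, reverse strand), had a mean log2 CPM of -0.15 for its only transcript NM_010423. This equals 0.902 CPM and made *Hey1* the only member under 1 CPM.

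**Figure D1:**
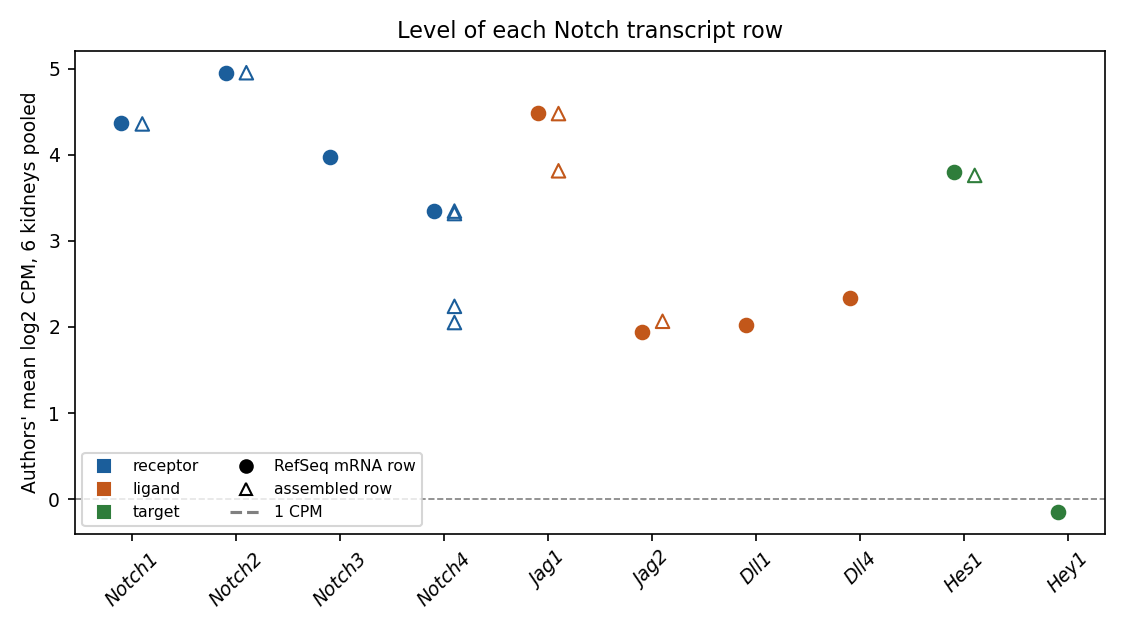
Mean log2 CPM (vertical axis, the authors' mean over 6 kidneys) of each of the 20 transcripts of the 10 genes, with RefSeq mRNAs as circles, assembled transcripts as triangles and 1 CPM as a dashed line. The transcripts of *Notch2* lie at 4.95, *Hey1* alone lies under the line at -0.15, and only *Notch4* and *Jag1* have transcripts well apart from their RefSeq mRNA.

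Of the 6 genes listed with more than 1 transcript, all had an assembled transcript within 1.09-fold of the RefSeq mRNA. In 4 of the 6 the highest and lowest transcripts were within 1.5-fold of each other, against 68.9% of the 8470 genes with several transcripts and at least 1 CPM. Transcripts of a gene were therefore not added up, and the highest stands for the gene. Some exons also lie opposite other genes. In GRCm38 the RefSeq mRNA of *Dll1* shares 624 bases (17.4% of its length) with *A930024N18Rik* on the other strand, and that of *Notch1* shares 1068 bases (11.3%) with *0610009E02Rik*. *Notch3* shares 488 bases with *Gm17276* and *Dll4* 214 with *Gm14207*, both on the other strand, and *Notch2* shares 541 with *Gm42820* on its own strand. The libraries keep the strand, but whether it was used in counting is not given in the sources used here, so reads on these shared bases cannot be assigned to 1 of the genes.

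Long mRNAs collect more reads, so the levels of different genes were compared as CPM per kb of the RefSeq mRNA. On that scale *Hes1*, with a transcript of 1468 bases, was the highest member at 9.49 CPM per kb. It stood 2.38-fold above *Jag1* (3.99 CPM per kb) and 25.5-fold above *Hey1* (0.372 CPM per kb), which was the lowest.

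The receptors followed each other closely in CPM per kb. *Notch2* had 2.95, *Notch1* 2.18, *Notch3* 1.96 and *Notch4* 1.54 CPM per kb, so that the highest receptor was 1.92-fold above the lowest. With these lengths no receptor held most of the sum over the 4, *Notch2* giving 34.2% of it and *Notch4* 17.8%. With the median length of all annotated transcripts of each gene, which for *Notch1* is 406 bases against 9488 for its RefSeq mRNA, *Notch1* gave 54.2% of the sum and *Notch2* was the lowest, 10.2-fold below it.

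The ligands were less even in CPM per kb. *Jag1* gave 55.2% of the sum over the 4 ligands and stood 2.97-fold above *Dll4* (1.34 CPM per kb), 3.51-fold above *Dll1* (1.14 CPM per kb) and 5.28-fold above *Jag2* (0.755 CPM per kb). The 4 receptors summed to 8.62 CPM per kb and the 4 ligands to 7.22 CPM per kb. In the order of all members, neighbours from *Jag1* down to *Dll1* differed by 1.11-fold to 1.35-fold, and none of these steps can be set against a spread between kidneys. With the median length, *Jag1* gave 32.7% of the ligand sum and stood 1.15-fold above *Dll1*, 1.21-fold above *Jag2* and 2.79-fold above *Dll4*, and *Notch1* was the highest of all members in place of *Hes1*.

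**Figure D2:**
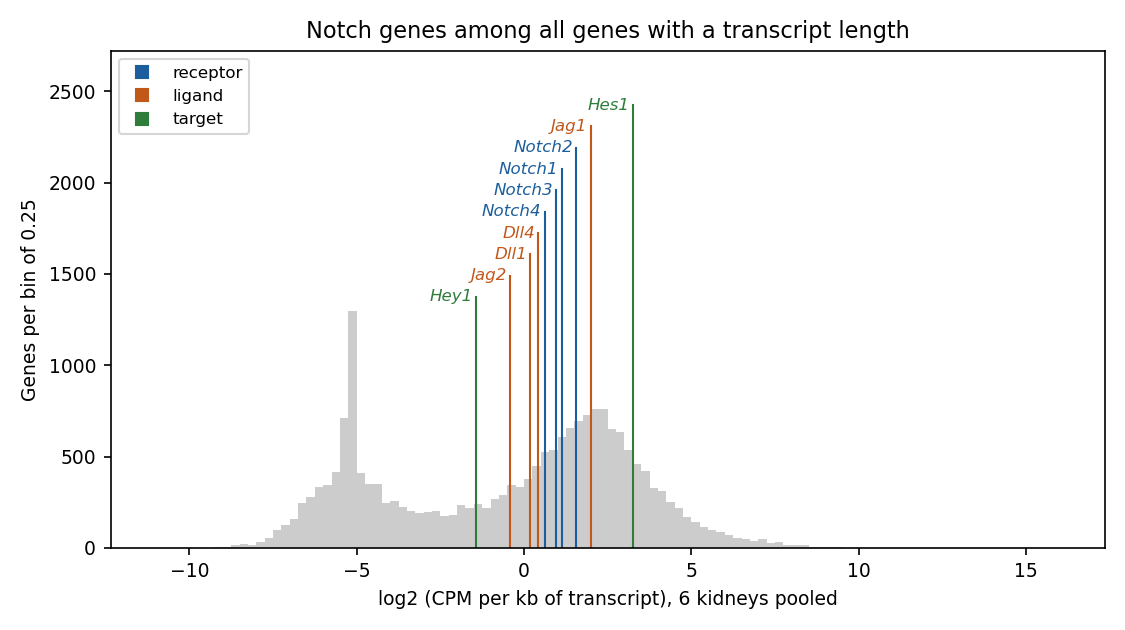
Number of genes (vertical axis, bins of 0.25) by log2 of CPM per kb (horizontal axis) for the 20167 genes with a transcript length, with a line for each of the 10 genes coloured by role. *Hes1* (9.49 CPM per kb) lies in the right flank of the main peak of expressed genes, *Hey1* (0.372 CPM per kb) between the peaks, and the receptors in the left flank of the main peak.

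Set against all genes with a transcript length, whether expressed or not, most members were ordinary in level. The median over the 10 was 1.75 CPM per kb, and that over all 20167 genes with a transcript length was 1.40 CPM per kb. *Hes1* lay above 85.2% of these genes and *Jag1* above 68.7%. The receptors lay above 51.4% (*Notch4*) to 62.4% (*Notch2*) of them. *Dll4*, *Dll1* and *Jag2* lay a little below the middle of all these genes, above 49.4%, 47.4% and 43.2% of them, and *Hey1* above 38.0%. Among genes of at least 1 CPM the rank was taken by CPM, which is not divided by length and so favours long mRNAs. On that ranking 3 ligands lay low. *Dll4* was above 24.3% of those genes, *Jag2* above 20.3% and *Dll1* above 19.8%. *Notch4* lay above 42.9%, and the other members of at least 1 CPM above 53.4% (*Hes1*) to 77.1% (*Notch2*). At least 1 CPM was reached by 9 of the 10 members and by 55.9% of all genes with a symbol.

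The rest of the pathway was examined with a list of 39 genes, all of which were listed. At least 1 CPM was reached by 34 of them, and their median was 2.64 CPM per kb. The proteases that cut the receptor after ligand binding, grouped with the other subunits of gamma-secretase, were the most abundant group. Its median was 10.1 CPM per kb over 8 genes. *Adam10*, which makes the first of these cuts, had 17.8 CPM per kb, the highest of the list. It was followed by *Psenen* with 17.6 and *Aph1a* with 16.5 CPM per kb, both encoding subunits of gamma-secretase. In the rest of the group, *Ncstn* had 13.0, *Adam17* 7.19, *Psen2* 3.42, *Aph1b* 2.17 and *Aph1c* 1.65 CPM per kb. *Aph1b* and *Aph1c* are near-identical copies, and reads may be split between them.

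In the nucleus, *Rbpj*, the DNA-binding partner of all Notch receptors, had 5.50 CPM per kb. The Mastermind co-activators *Maml1*, *Maml2* and *Maml3* had 2.45, 1.49 and 1.18 CPM per kb, close to the receptors. Among the enzymes that add sugars to the receptor, the Fringe genes *Rfng*, *Lfng* and *Mfng* had 3.85, 2.92 and 1.60 CPM per kb.

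Other HES and HEY genes also differed widely in level. *Hes6* had 5.59 CPM per kb and *Heyl*, known from vascular smooth muscle, 1.74 CPM per kb. *Hey2* had 0.467 CPM per kb, close to *Hey1*. *Nrarp*, a feedback inhibitor switched on by Notch, had 1.51 CPM per kb.

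Under 1 CPM were 5 genes of the list. *Dll3*, an inhibitory Delta-like protein, had 0.0337 CPM and *Hes5* 0.0278 CPM, both near 0.0263 CPM, the lowest mean in the table, which 4617 transcripts share. *Hes7*, of the segmentation clock, had 0.155 CPM for its assembled transcript and 0.0636 CPM for its RefSeq mRNA, which is used per length. *Dtx1*, a Deltex ubiquitin ligase, had 0.275 CPM and *Dlk1*, a non-canonical ligand, 0.559 CPM. Per length, the lowest 3 were *Dll3*, *Hes5* and *Hes7*, with 0.0129, 0.0219 and 0.0352 CPM per kb. As *Dll3* and *Hes5* lie near the lowest mean, their order per length follows transcript length (2618 and 1273 bases) and is not a measured difference in level. The ligands measured at more than 1 CPM were thus the 4 members alone among the 6 ligands examined.

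**Figure D3:**
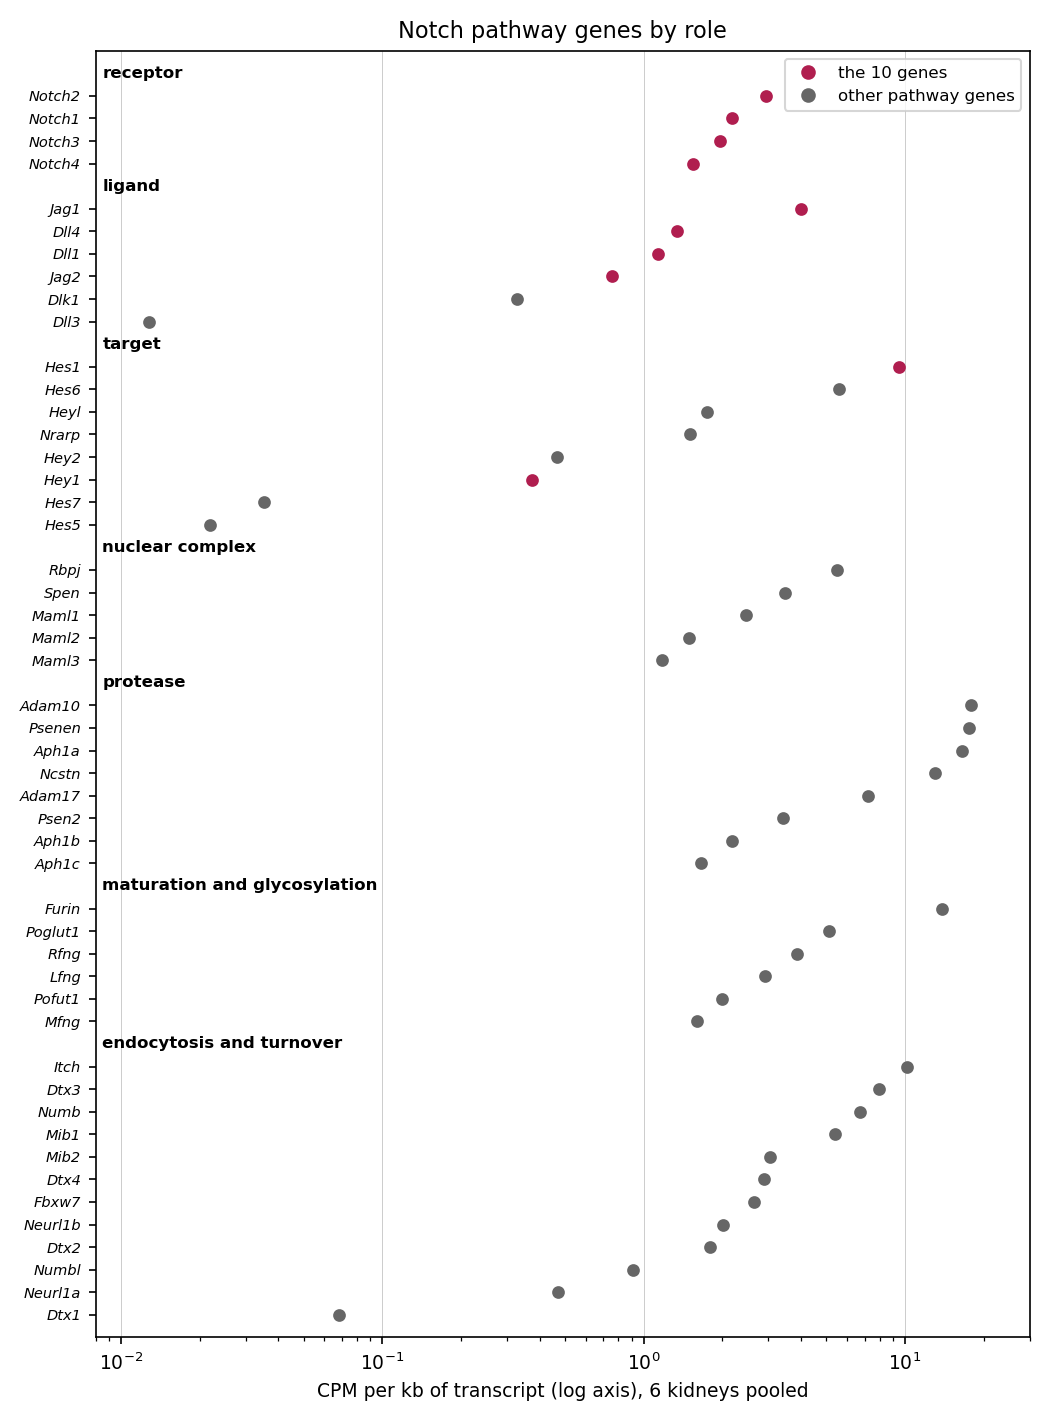
CPM per kb (horizontal log axis) of the 10 genes (red) and of 39 other Notch pathway genes (grey), grouped by role and ordered within each role. Proteases reach 17.8 CPM per kb (*Adam10*), while *Dll3*, *Hes5* and *Hes7* lie far to the left at 0.0129, 0.0219 and 0.0352 CPM per kb. The CPM of *Dll3* and *Hes5* is near the lowest mean of all transcripts.

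The labelled tissue was checked with markers of kidney cells. Tubule markers were abundant, with 5 proximal tubule genes at 11.4 to 423 CPM per kb. *Umod* and *Slc12a1* of the thick ascending limb had 374 and 132 CPM per kb, and 3 collecting duct genes 34.6 to 52.2 CPM per kb (*Aqp2*). The 3 podocyte genes ranged from 2.22 (*Nphs1*) to 24.3 CPM per kb (*Podxl*). *Myh6*, *Ins2* and *Gfap*, of heart, pancreas and glia, had 0.0280 to 0.0747 CPM per kb, and the liver gene *Alb* had 6.58 CPM per kb. *Ins2* had 0.0278 CPM, near the lowest mean of all transcripts, so its value per kb follows its length and is not a measured level. Of the leukocyte markers, *Ptprc* had 1.62 and *Cd3e* 0.110 CPM per kb, and the macrophage marker *Adgre1* was not listed under that symbol.

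Vascular cells were present beside the tubules. The 5 endothelial markers ranged from 4.15 (*Kdr*) to 23.3 CPM per kb (*Emcn*), all above the 1.54 CPM per kb of *Notch4* and the 1.34 CPM per kb of *Dll4*. The 4 genes of smooth muscle and pericytes ranged from 3.17 (*Myh11*) to 41.1 CPM per kb (*Acta2*), above the 1.96 CPM per kb of *Notch3*. In whole kidney RNA, few cells of a type and little RNA per cell cannot be told apart, and which cells hold each Notch mRNA was not measured.

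**Figure D4:**
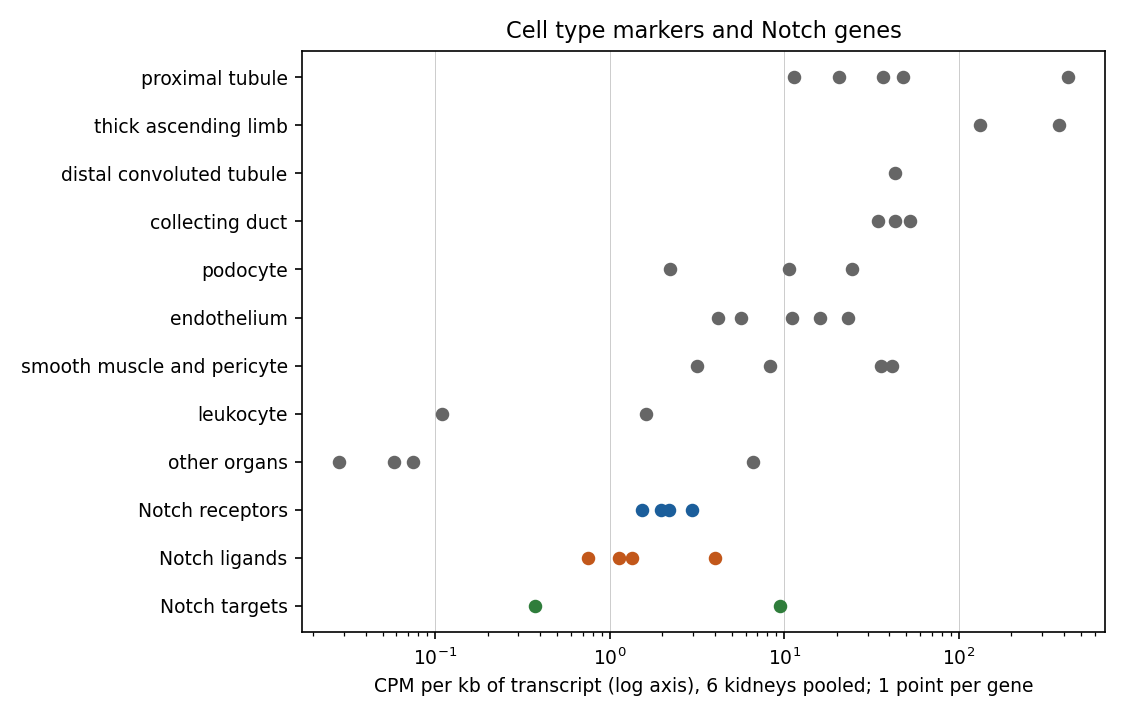
CPM per kb (horizontal log axis, 1 point per gene) of cell type markers in grey and of the Notch receptors, ligands and targets in colour. The receptors, at 1.54 to 2.95 CPM per kb, lie below all endothelial markers (4.15 to 23.3 CPM per kb) and far below the markers of the thick ascending limb.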

How the data were processed

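Total RNA of 3 SKO and 3 DKO kidneys was sequenced by the authors as stranded single-end libraries. Reads were trimmed and mapped to mm10 (the assembly GRCm38) with TopHat2 2.0.12 and the iGenomes annotation. The submitters' processing notes also name Cufflinks, featureCounts, Subread 1.4.6 and edgeR 3.2.4. The deposited log2 values are the average log2 CPM that edgeR gave over the 6 libraries, called the authors' mean log2 CPM here. The columns with the authors' log2 fold change of DKO over SKO, likelihood ratio statistic, p-value and adjusted p-value were not used. No value of a single kidney is in the table used here, so no test was made and depth is unknown.

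CPM was computed as 2 to the power of the deposited value. The transcript with the highest mean stands for a gene in CPM, and its highest RefSeq mRNA with a known length in CPM per kb. Lengths and 3′-UTRs were read from GENCODE M21 through RefSeq identifiers, found for 20167 genes (98.5% of those with a RefSeq mRNA). Percentages of genes with a lower level are descriptions. The search for seed matches was tested only with the word GCACTTT planted in random sequences of C and G. The calculation of the percentages of genes with a lower level was tested only on a shuffled series of whole numbers. Python 3.11.15, numpy 2.4.6, pandas 2.3.3 and matplotlib 3.10.9 were used. Genes named are the 10 members, and of the 39 other pathway genes the highest 3 and lowest 3 per kb and those under 1 CPM. A further gene is not reported here. Other pathway genes and the markers given singly were chosen after their values were seen. The members and lists were chosen with earlier results of these data known.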

Additional observations from a re-analysis of the deposited data

How the results depend on the processing

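Levels rest on a single pooled value per transcript, so leaving out a kidney or changing the normalization could not be run. No paired analysis was possible because every level is a mean over all 6 kidneys. Without a spread between kidneys, a level was taken as moved when it changed by more than 1.5-fold. The median over the 10 genes was 12.0 CPM with the highest transcript of each gene, 10.8 CPM with the mean over all transcripts and 12.0 CPM with RefSeq mRNAs alone, and none of the 10 levels moved under either. Per length, the median of 1.75 CPM per kb rose to 5.92 CPM per kb when the median length of all annotated transcripts was used, and all 10 levels moved, because the annotation lists many short fragments of these genes. With the longest annotated transcript, an alternative chosen after seeing the data, all 10 values were as reported, since the RefSeq mRNA is the longest transcript of each gene. *Jag1* remained the highest ligand and *Hes1* the higher target under each length, whereas with the median length the order of the receptors and of the other ligands changed, *Dll4* falling to the lowest ligand, and the lead of *Jag1* over *Jag2* shrank from 5.28-fold to 1.21-fold. The median share of genes with a lower level was 71.0% by CPM, 53.4% among genes of at least 1 CPM (9 members) and 53.2% by CPM per kb. Among genes of at least 1 CPM, the share fell by more than 1.5-fold for 4 of these 9 members, because genes of low level are left out. These 4 were *Notch4*, *Dll4*, *Jag2* and *Dll1*.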
